A study of Homo sapiens with 9 samples.

Results

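The genes described here build and run the DNA replication fork. They are 51 of the 19969 gene symbols counted in HEK293T, an established line grown from human embryonic kidney, and were chosen by symbol from textbook roles in origin licensing, helicase loading, DNA synthesis, clamp loading, fork protection and nucleotide supply. All 51 were in the count table, and all 51 passed the low-count filter of each comparison. The series concerns light-controlled changes to m6A (N6-methyladenosine), a methylated base of messenger RNA. RNA depleted of ribosomal RNA was sequenced in 9 libraries. The FHY1-M3 construct was present in 6 of them, and its guide RNA was an ACTB sgRNA in 2, a con sgRNA in 2 and a non-target sgRNA in 2, while the other 3 were labelled input. From the labels it is not known if the RNA with the construct was total or immunoprecipitated, what light was given, or if the input cells carried the construct. The con columns of the table carry ACTB in their name while the sample titles do not, so the con guide is used here only as labelled. No label ties the replicates to separate cultures, and p-values therefore cover only the spread of these libraries, which may be technical.

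Eukaryotic origins are licensed in G1, when the origin recognition complex (ORC), CDC6 and CDT1 load the MCM2 to MCM7 ring onto DNA, and geminin later blocks CDT1 so that each origin fires once. In S phase CDC45 and the GINS complex join the ring to form the active helicase. Polymerase alpha and primase then start each strand, polymerases delta and epsilon extend it with the PCNA clamp, and FEN1 and DNA ligase I join the lagging-strand pieces. Many of these genes are transcribed from G1 into S phase by E2F factors. HEK293T cells divide continuously in culture.

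Total counts ran from 2900021 to 3802681 with the construct, and the inputs held 350413 to 643954, so input values are the less precise ones. The median coefficient of variation of the 51 genes was 13.8% over the FHY1-M3 libraries and 27.8% over the inputs, and it was larger in the inputs for 43 genes. All 8 genes of a list for the embryonic kidney and neuronal traits of this line were detected in every FHY1-M3 library. In the inputs LHX1 held 0, 2 and 0 counts and INA 0, 12 and 2. The summed level of the 8 genes was 517 to 608 CPM (counts scaled to library size) in the FHY1-M3 libraries and 462 to 571 CPM in the inputs. Summed markers of T and B cells reached 6.31 and 17.1 CPM in the same order and those of endothelial cells 3.16 and 6.21 CPM, with PTPRC, CD3E and CD2 (3 of 5) and CDH5 (1 of 4) at 0 in every library. Myeloid markers ran from 6.66 to 22.1 CPM and from 0 to 17.1 CPM, with LYZ (1 of 5) at 0 throughout, and fibroblast markers from 23.4 to 51.1 CPM and from 15.3 to 68.5 CPM, with COL1A2 (1 of 5) at 0. Markers of differentiated kidney tubule, of which UMOD (1 of 5) was at 0, ran from 42.6 to 68.4 CPM and from 61.3 to 143 CPM. LRP2 held most of the tubule counts and COL1A1 most of the fibroblast counts in every library.

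Promoter sequence was not used in the choice of these genes. RefSeq promoter windows (GRCh38.p14), each 250 bases before to 50 bases after an annotated start, were found for 44 of the 51 genes, some with several starts (57 windows). They were searched on both strands for 4 E2F-type motifs (TTTCGCGC, TTTGGCGC, TTTCCCGC and TTTGCCGC, which can overlap each other), for CCAAT, the core of NF-Y sites, and for TTTGAA, the cell cycle homology region of many mitotic promoters. An E2F-type motif was in 22 of the 57 windows (38.6%), against 3.31% of all 35116 windows. By gene it was 22 of 44 (50%), against 5.36% of the 14908 counted genes with a window. CCAAT was in 57.9% of the windows of the replication genes and 34.6% of all windows, and TTTGAA in 3.51% and 15.2%. The 200 bases before the start are shown for the 3 genes with an E2F-type motif there that rose most in the FHY1-M3 libraries, and for the 3 with such a motif and the lowest fold change that did not pass the test. Capitals mark the E2F-type motifs, read in either direction, and each sequence runs 5′ to 3′ on the gene's strand.
MCM6, chr2:135876444-135876643, minus strand: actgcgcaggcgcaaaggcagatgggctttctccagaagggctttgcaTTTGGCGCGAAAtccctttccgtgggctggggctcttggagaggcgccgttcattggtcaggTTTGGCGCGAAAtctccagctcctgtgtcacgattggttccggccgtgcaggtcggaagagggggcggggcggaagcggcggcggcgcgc
MCM7, chr7:100101398-100101597, minus strand: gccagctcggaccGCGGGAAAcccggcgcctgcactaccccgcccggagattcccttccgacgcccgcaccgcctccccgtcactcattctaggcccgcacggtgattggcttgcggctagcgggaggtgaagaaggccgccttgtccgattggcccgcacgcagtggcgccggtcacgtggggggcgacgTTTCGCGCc
MCM3, chr6:52284743-52284942, minus strand: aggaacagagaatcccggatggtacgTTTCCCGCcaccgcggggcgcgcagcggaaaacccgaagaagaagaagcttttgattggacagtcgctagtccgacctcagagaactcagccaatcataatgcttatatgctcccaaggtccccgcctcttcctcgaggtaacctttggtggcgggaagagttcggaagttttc
ORC3, chr6:87589935-87590134, plus strand: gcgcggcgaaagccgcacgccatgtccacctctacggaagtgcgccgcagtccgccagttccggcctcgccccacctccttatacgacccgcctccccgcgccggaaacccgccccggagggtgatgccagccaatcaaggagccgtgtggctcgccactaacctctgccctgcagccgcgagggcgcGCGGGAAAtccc
CDT1, chr16:88803589-88803788, plus strand: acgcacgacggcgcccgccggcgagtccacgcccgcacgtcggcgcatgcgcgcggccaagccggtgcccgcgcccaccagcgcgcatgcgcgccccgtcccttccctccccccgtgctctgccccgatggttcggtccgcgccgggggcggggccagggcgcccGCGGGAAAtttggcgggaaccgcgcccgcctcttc
TYMS, chr18:657453-657652, plus strand: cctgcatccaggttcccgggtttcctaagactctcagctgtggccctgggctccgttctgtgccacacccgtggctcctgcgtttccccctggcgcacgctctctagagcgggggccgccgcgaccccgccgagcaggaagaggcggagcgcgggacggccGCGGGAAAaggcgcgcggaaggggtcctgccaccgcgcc
MCM6 carried 2 runs of 12 bases in which TTTGGCGC and the reverse complement of TTTCGCGC overlap, the first starting 152 bases before the start (position -152) and the other at -90. MCM7 had motifs at -187 and -9, MCM3 at -174, ORC3 at -12, CDT1 at -35 and TYMS at -39. Among the genes with a window, 7 of 15 that rose in the FHY1-M3 libraries held the motif (46.7%), and 15 of 29 that did not pass held it (51.7%). A match in these letters is a description and not a measured binding site.

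The FHY1-M3 libraries were compared with the inputs in 1 fit of all 9 libraries (edgeR quasi-likelihood test, Benjamini-Hochberg adjusted p under 0.05). Of the 51 replication genes, 17 rose and 0 fell, and the largest group among them was the replicative helicase. Over all 13411 genes tested, 11.4% rose and 8.6% fell, while 33.3% of the replication genes rose. The balance over all genes turned with the scaling: 1524 genes were higher and 1153 lower as reported, and 1251 were higher and 1343 lower with median-ratio factors, where the median of all genes was -0.042 and 16 replication genes were higher and 1 lower. Their median log2 fold change was 0.43, against 0.037 for all genes tested. With no adjustment 23 were higher and 3 lower at a p under 0.05, or 26 of 51, compared with 31.9% of all genes. DESeq2 called 17 of the 51 higher and 2 lower, the latter being RRM2 and RNASEH2A. Its share over all genes is not given here. In 18 members every FHY1-M3 library lay above every input, compared with 14.9% of all genes, and in 0 members did every one lie below (8.51% of all genes). The 51 genes together took 0.880% to 0.920% of the counts in the FHY1-M3 libraries and 0.590% to 0.622% in the inputs. The helicase genes went from 0.208% ± 0.0133 (SD, n = 3) of the input counts to 0.385% ± 0.0113 (n = 6) in the FHY1-M3 libraries. The groups did not overlap for 3 other roles. Clamp and Okazaki processing genes took 0.0960% to 0.111% of the input counts and 0.150% to 0.159% of the FHY1-M3 counts, polymerase genes 0.0810% to 0.104% and 0.116% to 0.139%, and single-strand binding and fork protection genes 0.0576% to 0.0634% and 0.0732% to 0.0912%. Origin licensing genes stood at 0.0903% ± 0.00789 and 0.0979% ± 0.00556, and nucleotide supply genes at 0.0545% ± 0.00593 and 0.0611% ± 0.00324, with overlapping libraries in both. Mitosis genes, described below, did not overlap either, at 0.499% to 0.546% of the input counts and 0.602% to 0.629% of the FHY1-M3 counts. The further replication factors and G1/S regulators below also separated, while recombination and further deoxynucleotide genes overlapped. Each share also depends on the rest of the library, and mitochondrial mRNAs and histone genes took less of the FHY1-M3 counts. In bulk libraries a change in the number of cells in a cell cycle phase and a change in RNA per cell cannot be told apart. The construct, sequencing depth and any difference in RNA preparation go together in this comparison, so they cannot be told apart either.

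**Figure D1:**
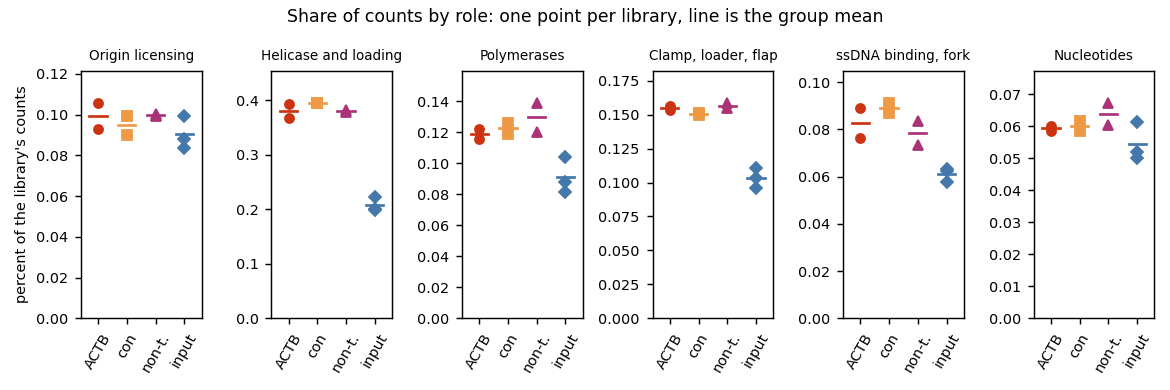
Percent of each library's counts taken by the genes of each role, with 1 point per library, grouped by guide and input, and a line at the group mean. Helicase genes take 0.367% to 0.395% in the 6 FHY1-M3 libraries and 0.199% to 0.223% in the 3 inputs, while the groups overlap for origin licensing and nucleotide supply.

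Other features of the libraries moved with this comparison. Mitochondrial mRNAs took 7.52% to 7.80% of the input counts and 0.563% to 0.639% of the FHY1-M3 counts, replication-dependent histone genes took 0.797% to 0.938% and 0.132% to 0.149%, and a list of 18 heat shock genes took 0.580% to 0.609% and 1.33% to 1.43%. With the mitochondrial and histone genes removed before scaling, 17 of the 17 higher calls were kept. With the FHY1-M3 libraries thinned to the mean input total of 462026 counts, 13 of 17 were kept, and 4 missed the threshold with values of the same sign. These were GMNN at a log2 of 0.66 (adjusted p = 0.0591), RFC2 at 0.45 (0.189), MCM4 at 0.27 (0.112) and RRM1 at 0.36 (0.0892), against 0.80, 0.63, 0.40 and 0.50 at full depth. The part of the heat shock genes in the result was not tested.

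Among the helicase genes 9 of 13 rose (69.2%, against 11.4% of all genes), and these included all 6 genes of the MCM2 to MCM7 ring. MCM6, a ring subunit, stood at 78.1, 150 and 94.1 CPM in the 3 inputs and at 257 (lowest), 302 (median) and 305 CPM (highest) in the FHY1-M3 libraries. Every FHY1-M3 library was above every input, and the fold was 2.65 (95% interval 2.06 to 3.4, log2 1.4, SE 0.18, adjusted p = 2.01e-07). MCM7, the ring subunit with the most counts, was at 370, 364 and 303 CPM in the inputs and 672, 718 and 769 CPM (lowest, median, highest) in the FHY1-M3 libraries, without overlap (log2 1.06, SE 0.11, adjusted p = 1.22e-09). The MCM7 locus overlaps that of AP4M1, and with no strand setting given their reads cannot be told apart. MCM2 rose by a log2 of 0.96 (SE 0.12), MCM3 by 0.87 (SE 0.14) and MCM5 by 0.76 (SE 0.16), again with every FHY1-M3 library above every input. MCM4 showed the smallest change of the ring. Its inputs were at 405, 432 and 471 CPM and its FHY1-M3 libraries at 467, 584 and 640 CPM (lowest, median, highest), so that the groups overlapped narrowly (log2 0.40, SE 0.11, adjusted p = 0.00774). Ring subunits assemble in equal numbers as proteins, which were not measured here. The RNA folds ran from 1.32 for MCM4 to 2.65 for MCM6, with intervals of 1.13 to 1.54 and 2.06 to 3.4.

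Of the factors that turn the ring into an active helicase, some passed and some did not. MCM10, which helps to start the helicase, was at 78.1, 150 and 110 CPM in the inputs and 236, 273 and 314 CPM in the FHY1-M3 libraries (log2 1.24, SE 0.18, adjusted p = 3.3e-06). CDC45, the helicase cofactor, was at 40.5, 122 and 73.2 CPM and at 147, 174 and 217 CPM (log2 1.12, SE 0.23, adjusted p = 0.000484). Neither gene had an FHY1-M3 library within the range of the inputs. Of the 4 GINS subunits only GINS3 passed (25%, against 11.4% of all genes). GINS3 was at 57.8, 27.6 and 57.5 CPM in the inputs and 85.9, 100 and 143 CPM in the FHY1-M3 libraries (log2 1.20, SE 0.29, adjusted p = 0.00237). GINS1 (log2 0.52, SE 0.28), GINS2 (0.21, SE 0.30) and GINS4 (-0.36, SE 0.25) did not, and the intervals of GINS3 (0.62 to 1.79) and GINS4 (-0.88 to 0.15) do not meet. MCM8, which is outside the ring and acts in recombination, was at a log2 of 0.01 (SE 0.38) with 53 counts over the inputs. Its estimate is too imprecise for a direction.

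**Figure D2:**
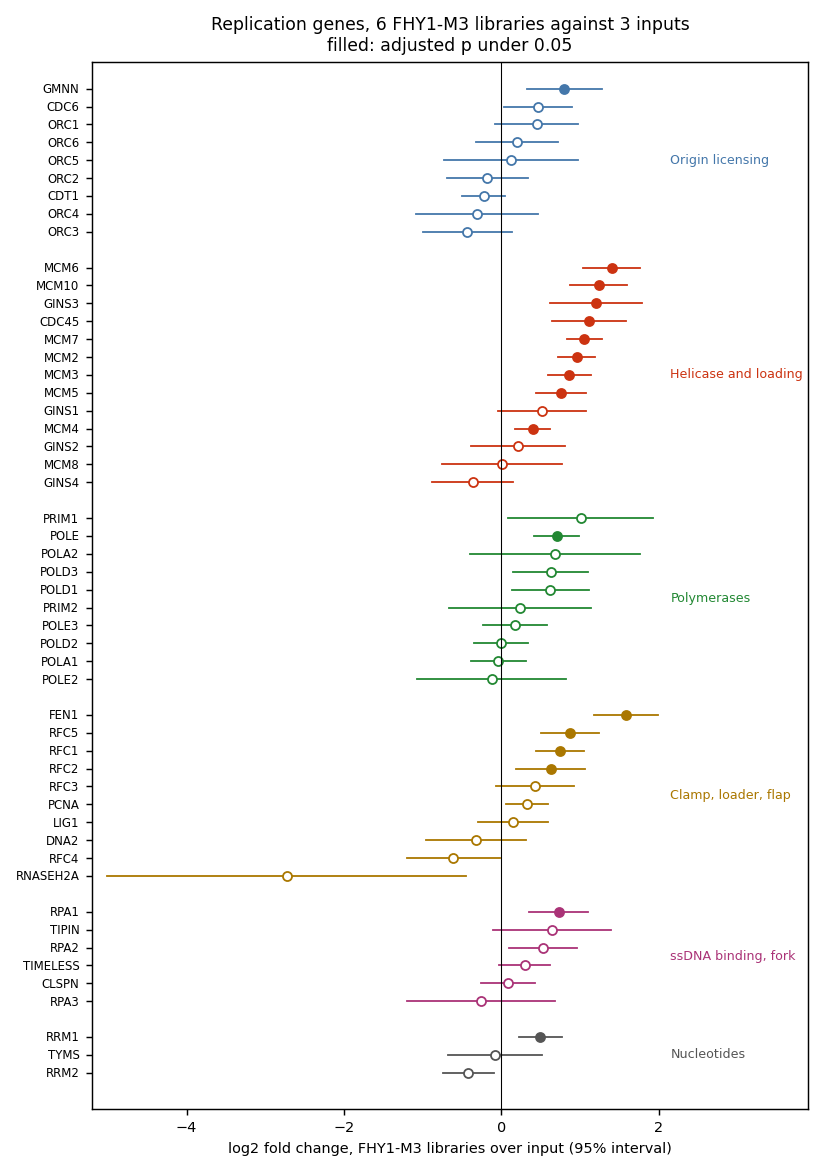
Log2 fold change of each of the 51 genes between the 6 FHY1-M3 libraries and the 3 inputs, with its 95% interval, ordered within each role, with filled points for an adjusted p under 0.05. Filled points are 9 of 13 in the helicase group and 1 of 9 in the licensing group.

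Of the 9 origin licensing genes 1 passed (11.1%), which is near the 11.4% of all genes. GMNN, which encodes the CDT1 inhibitor geminin, had 57.8, 68.3 and 73.2 CPM in the inputs and 97.8, 116 and 140 CPM in the FHY1-M3 libraries (log2 0.80, SE 0.23, adjusted p = 0.0123). CDT1, the MCM loader that geminin binds, was at 318, 335 and 379 CPM in the inputs and 238, 295 and 337 CPM in the FHY1-M3 libraries (log2 -0.22, SE 0.13, adjusted p = 0.253). The GMNN groups did not overlap and the CDT1 groups did. The ratio of GMNN to CDT1 counts within a library, which no scaling changes, was 0.182, 0.204 and 0.193 in the inputs and ran from 0.309 to 0.464 in the FHY1-M3 libraries, a pair chosen after its values were seen. CDC6, the other loader, reached a log2 of 0.47 (SE 0.21, adjusted p = 0.119). Of the 6 ORC subunits 0 passed in edgeR or DESeq2, and 0 had an unadjusted edgeR p under 0.05. Their log2 fold changes ran from -0.43 for ORC3 (SE 0.28) to 0.45 for ORC1 (SE 0.26), with a median of -0.03, against a median of 0.91 for the ring. ORC3, the lowest, was at 119, 58.5 and 73.2 CPM in the inputs and 50.9, 60.2 and 69.2 CPM in the FHY1-M3 libraries, so that 1 input stood far above the rest. The inputs held 54 to 115 counts for each ORC subunit, and the intervals of all 6 leave room for folds between 0.470 and 1.97. In 10 of the 51 genes the locus overlaps that of another counted gene, among them ORC1, ORC3, ORC4 and GINS2.

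**Figure D3:**
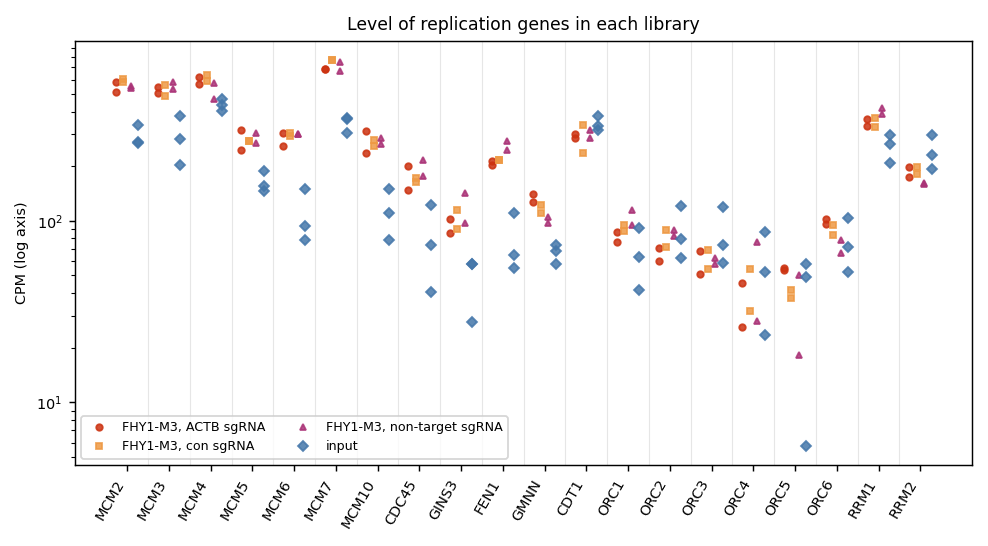
CPM of 20 replication genes in each of the 9 libraries on a log axis, with 1 symbol per library and a different symbol for each guide and for input. For MCM6, MCM7 and FEN1 the inputs lie below every FHY1-M3 library, while for ORC1 to ORC6 and CDT1 the symbols mix.

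Of the 10 polymerase and primase genes 1 passed, a share (10%) near the 11.4% of all genes. POLE, the catalytic subunit of the leading-strand polymerase epsilon, stood at 214, 257 and 193 CPM in the inputs and 331, 339 and 456 CPM in the FHY1-M3 libraries, with no overlap (log2 0.71, SE 0.14, adjusted p = 0.000377). Its partner subunits POLE2 (-0.12, SE 0.47) and POLE3 (0.17, SE 0.20) did not pass. The polymerase delta genes POLD1 (0.62, SE 0.24) and POLD3 (0.63, SE 0.24) missed the threshold at adjusted p = 0.0654 and 0.0569, and both passed with library totals as the scaling, with no filter beyond 1 count and without input replicate 2. POLD1 also passed with the replicate block and POLD3 without non-target replicate 2. POLD2, of the same polymerase, was at -0.0014 (SE 0.17), with an interval of -0.35 to 0.35. PRIM1, the catalytic primase subunit, had a fold of 2.02 that did not pass (interval 1.06 to 3.82, adjusted p = 0.117) on 25 counts over the 3 inputs. POLA2, with 18 counts over the inputs, was at 11.6, 13 and 15.7 CPM in the inputs and 17.4, 21.1 and 26.0 CPM in the FHY1-M3 libraries. Its groups did not overlap, yet the log2 fold change of 0.68 carried an SE of 0.53. POLA1, the catalytic subunit of polymerase alpha, was at -0.04 (SE 0.17), and PRIM2 at 0.24 (SE 0.44).

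FEN1, the nuclease that trims flaps from lagging-strand pieces, had the highest fold of all 51 genes. It stood at 54.9, 65.0 and 110 CPM in the inputs and 203, 216 and 276 CPM in the FHY1-M3 libraries, 2.99 times as high (interval 2.26 to 3.97, log2 1.58, SE 0.20, adjusted p = 2.21e-07). Other lagging-strand genes had smaller values that did not pass. The ligase gene LIG1 was at a log2 of 0.15 (SE 0.22), the nuclease and helicase gene DNA2 at -0.32 (SE 0.31), and PCNA, the sliding clamp, at 260, 236 and 314 CPM in the inputs against 309, 338 and 369 CPM in the FHY1-M3 libraries (log2 0.33, SE 0.13, adjusted p = 0.0796). PCNA passed with library totals, with a replicate block and without input replicate 3. The block gives input replicate 3 a term of its own, so it and that removal are not separate checks. Of the 5 genes of the clamp loader RFC, 3 rose (60%, against 11.4% of all genes). RFC5 was at 116, 101 and 99.3 CPM in the inputs and 178, 191 and 204 CPM in the FHY1-M3 libraries (log2 0.87, SE 0.18, adjusted p = 0.000616), although its locus overlaps that of WSB2. RFC1, the large subunit, was at 185, 140 and 199 CPM and at 268, 291 and 304 CPM (log2 0.75, SE 0.15, adjusted p = 0.000439). RFC2 was at 72.3, 81.3 and 105 CPM and at 106, 139 and 165 CPM (log2 0.63, SE 0.21, adjusted p = 0.0337), a bare separation. RFC2 lost its call under 12 of the 18 alternatives, among them the removal of any library other than input replicate 3, with adjusted p from 0.0203 to 0.189 over all of them. RFC3 was at 0.43 (SE 0.24). RFC4 had a value of the other sign, at 104, 58.5 and 83.6 CPM in the inputs and 41.6, 48.1 and 80.0 CPM in the FHY1-M3 libraries (log2 -0.61, SE 0.29, adjusted p = 0.142). The ratio of RFC5 to RFC4 counts, chosen after its values were seen, ran from 1.11 to 1.72 in the inputs and from 2.54 to 4.70 in the FHY1-M3 libraries. The ratio of POLE to POLE2, also computed, overlapped at 6.17 to 13.2 and 10.7 to 24.4 in the same order, and that of MCM6 to ORC2 did not. Each ratio in this report set a gene with a positive log2 fold change against one with a negative value, so a separation adds no further evidence. RNASEH2A, a subunit of an enzyme that cuts RNA paired with DNA, had the lowest value of all, a log2 of -2.72 (SE 1.13, adjusted p = 0.0837). It held 2, 18 and 2 counts in the inputs and 47 counts over the 6 FHY1-M3 libraries, so 1 input library carries most of that difference. RNASEH2A passed as lower in settings that included DESeq2 and halved counts. Its log2 ran from -4.23 to -1.40 over the alternatives that kept it.

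Of the 6 single-strand binding and fork protection genes only RPA1 rose, a share (16.7%) near the 11.4% of all genes. This large subunit of replication protein A stood at 116, 101 and 141 CPM in the inputs and 161, 203 and 217 CPM in the FHY1-M3 libraries, without overlap (log2 0.73, SE 0.19, adjusted p = 0.00408). RPA2 reached 0.53 (SE 0.21, adjusted p = 0.0761), also without overlap, and RPA3 was at -0.26 (SE 0.46) on 42 input counts. TIMELESS, which holds polymerase and helicase together, was at 191, 189 and 167 CPM in the inputs and 184, 225 and 282 CPM in the FHY1-M3 libraries (log2 0.30, SE 0.16, adjusted p = 0.195). Its partner TIPIN was at 0.65 (SE 0.37) and CLSPN, the checkpoint mediator claspin, at 0.09 (SE 0.17), with intervals that include no change.

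The subunits of ribonucleotide reductase, which makes the deoxynucleotides for DNA, differed in sign. RRM1, the large subunit, stood at 208, 296 and 267 CPM in the inputs and 327, 367 and 420 CPM in the FHY1-M3 libraries (log2 0.50, SE 0.13, adjusted p = 0.00713). RRM2, the S phase subunit, was at 231, 193 and 298 CPM in the inputs and 161, 179 and 197 CPM in the FHY1-M3 libraries (log2 -0.42, SE 0.16, adjusted p = 0.0569). RRM1 did not overlap between the groups and RRM2 did, narrowly. RRM2 passed as lower with median-ratio factors, with a mean of at least 10 CPM, in DESeq2, after thinning and without input replicate 2. Within a library the ratio of RRM1 to RRM2 counts was 0.9, 1.53 and 0.895 in the inputs and ran from 1.66 to 2.61 in the FHY1-M3 libraries, a pair chosen after its values were seen. TYMS, thymidylate synthase, was at -0.08 (SE 0.29). Its locus overlaps that of ENOSF1.

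**Figure D4:**
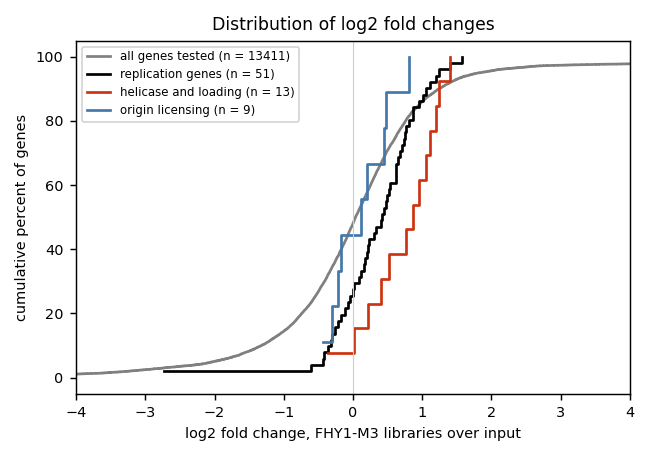
Cumulative percent of genes at or below each log2 fold change between the FHY1-M3 libraries and the inputs, for all genes tested, the 51 replication genes, the helicase genes and the licensing genes (the axis ends at -4 and 4). The helicase curve lies to the right with a median of 0.87, while the licensing curve has a median of 0.12 and all genes one of 0.037.

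The 17 genes that passed held 59 to 586 counts over the inputs, and 9 of the 34 others held fewer than 59. Of those 34, 20 had a positive and 14 a negative log2 fold change. Without any single library in turn 16 of the 17 calls were kept, all but RFC2, and 13 were kept under every alternative tried.

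Each guide was also set against the same 3 inputs, so these values share their controls. The edgeR test called 15 replication genes higher and 0 lower with each of the ACTB, con and non-target guides. Of all genes 7.05%, 7.22% and 8.1% were called higher and 3.97%, 4.22% and 4.57% lower. MCM6 stood at log2 values of 1.34, 1.43 and 1.44 in that order, FEN1 at 1.46, 1.51 and 1.78, and CDC45 at 1.07, 1.02 and 1.25. MCM4 passed with the ACTB and con guides (0.45 and 0.50) and not with the non-target guide (0.26). GMNN passed with the ACTB guide alone (1.0, against 0.80 and 0.61), RFC2 with the con guide alone (0.81, against 0.73 and 0.34), and RRM1 (0.64, against 0.43 and 0.42) and POLD3 (0.81, against 0.49 and 0.57) with the non-target guide alone. None of these 5 genes passed in a test between guides, where their adjusted p was at least 0.623. For POLD3 non-target replicate 1 stood apart, at 164 CPM against 106 to 121 CPM in the other FHY1-M3 libraries.

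Differences between guides were tested in 1 fit of the 6 FHY1-M3 libraries. In edgeR 0 of 51 replication genes passed between ACTB and non-target guides (0.25% of 12808 genes passed), 0 between ACTB and con guides (0.0312%) and 0 between con and non-target guides (0.172%). DESeq2 also gave 0 in each. With no adjustment 5, 0 and 5 members had a p under 0.05, against 7.82%, 3.86% and 5.25% of all genes. The medians over the 51 genes were -0.024, -0.043 and -0.035. TIMELESS was at 209 and 282 CPM with the ACTB guide, 241 and 248 CPM with the con guide and 191 and 184 CPM with the non-target guide. Both non-target libraries were lowest, at a log2 of 0.39 for ACTB over non-target (SE 0.15, adjusted p = 0.495) and 0.38 for con over non-target (SE 0.15, adjusted p = 0.807). CDC6 was at 178 and 136 CPM, 107 and 142 CPM, and 188 and 170 CPM in the same order (log2 -0.53 for con over non-target, SE 0.18, adjusted p = 0.765, and 0.34 for ACTB over con, SE 0.18, adjusted p = 1). FEN1 was at 203 and 214 CPM, 217 and 215 CPM, and 276 and 245 CPM, highest in both non-target libraries (log2 -0.32 for ACTB over non-target, SE 0.14, adjusted p = 0.584). RFC2 was lowest there, at 106 and 112 CPM against 144 and 141 CPM with the ACTB guide and 165 and 137 CPM with the con guide (log2 0.47 for con over non-target, SE 0.19, adjusted p = 0.807). PRIM2, at 45.9 and 42.2 CPM with the ACTB guide and 30.6 and 15.7 CPM with the non-target guide, had a log2 of 0.92 (SE 0.40, adjusted p = 0.58). Between ACTB and con guides MCM7 was at -0.16 (SE 0.08) and RFC3 at 0.37 (SE 0.20), both with an adjusted p of 1. The MCM7 libraries were at 689 and 685 CPM with the ACTB guide and 768 and 769 CPM with the con guide, and those of RFC3 at 136 and 142 CPM and 89.4 and 126 CPM. MCM7 has the tightest of these intervals, -0.32 to 0.01, while that of PRIM2 runs from 0.12 to 1.72, so the test leaves room for differences of very unequal size.

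**Figure D5:**
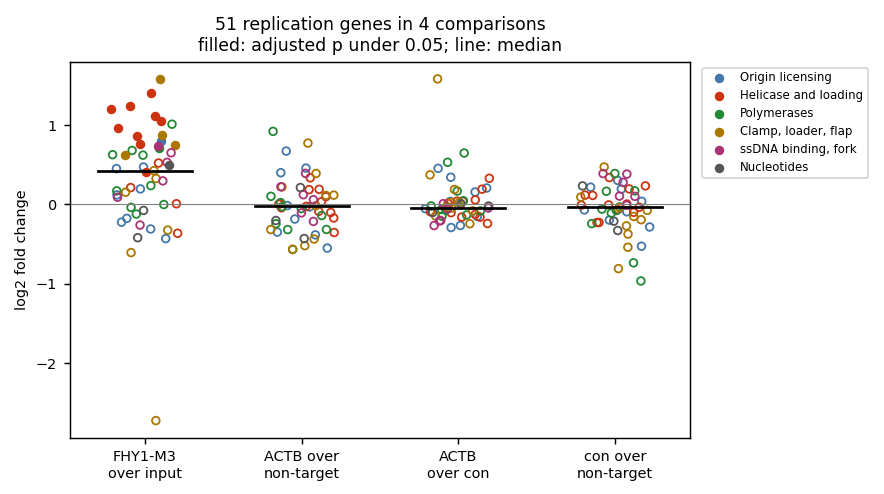
Log2 fold changes of the 51 genes in the comparison with input and in the 3 comparisons between guides, coloured by role, with filled points for an adjusted p under 0.05 and a line at the median. The comparison with input has 17 filled points and a median of 0.43, and the comparisons between guides have 0 filled points and medians of -0.024, -0.043 and -0.035.

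Other genes around replication were read from lists of textbook members, none of them in the set above, and their counts stand against 11.4% higher and 8.6% lower over all genes. Of 27 further replication factors, 7 rose (25.9%) and 2 fell between the FHY1-M3 libraries and the inputs, with a median of 0.25. RECQL4, a helicase needed to start origins (log2 1.59, SE 0.32), RNASEH2C, a partner subunit of RNASEH2A (1.43, SE 0.38), and MCMBP, a partner of the MCM ring (1.09, SE 0.18), rose, while ASF1A, a histone chaperone, fell (-1.32, SE 0.47). Of 12 genes of deoxynucleotide supply 0 rose and 2 fell (3 at an unadjusted edgeR p under 0.05), NME2 (-3.35, SE 1.02) and RRM2B, the p53-induced reductase subunit (-1.19, SE 0.38). NME2 has a close paralog in NME1, so its counts are uncertain. Of 26 regulators of the G1/S transition 7 rose (26.9%) and 4 fell (median 0.43). Those with the largest changes were the E2F family genes E2F6 (1.37, SE 0.34) and E2F8 (1.25, SE 0.39), the phosphatase gene CDC25A (1.06, SE 0.15) and the E2F partner gene TFDP1 (1.03, SE 0.24), all higher. The 4 that fell, named after their values were seen, were the cyclin-dependent kinase genes CDK6 (-0.91, SE 0.23) and CDK2 (-0.81, SE 0.23), the pocket protein gene RBL2 (-0.75, SE 0.25) and the cyclin gene CCND2 (-0.73, SE 0.14).

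Mitosis genes went both ways, with 8 of 37 higher (21.6%, against 11.4% of all genes), 5 lower and a median of -0.05. The spindle checkpoint kinase gene TTK (-1.74, SE 0.34) and UBE2C, a ubiquitin-conjugating enzyme of the anaphase promoting complex (-0.88, SE 0.22), fell, while the condensin gene SMC4 (0.88, SE 0.13) and the separase gene ESPL1 (0.86, SE 0.22) rose. Of 27 recombination and fork repair genes 4 rose (14.8%) and 2 fell (median 0.08), counts near the 11.4% and 8.6% of all genes, with NBN (1.26, SE 0.34), XRCC3 (1.10, SE 0.39) and PALB2 (0.91, SE 0.31) higher and MRE11 (-0.67, SE 0.22) lower. Replication-dependent histone genes, which are expressed in S phase together with the replication genes, fell in 37 of 43 cases and rose in 0, with a median of -2.75. Between guides 0 genes of the further replication, deoxynucleotide, G1/S, mitosis and recombination lists passed in edgeR in any comparison.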

How the data were processed

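The authors deposited whole-number counts per gene symbol, with no sign of normalization in the values. Per the submitters' processing notes, STAR 2.7.10b, cutadapt 4.3, deepTools and the hg38 build were used, with no roles stated. The counting tool, the strand setting and the annotation were not given in the sources used. Among genes with 1 to 20 counts 88.5% to 95.0% of values per library were even, so both mates of a pair appear to have been counted and counts are not independent molecules. All 9 columns were matched to samples by group name and replicate number, and replicate libraries differed beyond sampling noise (chi-square over degrees of freedom 1.80 to 5.12).

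Genes were tested with edgeR 4.0.16 in R 4.3.3 (quasi-likelihood F test, two-sided, low-count filter by group, TMM scaling, Benjamini-Hochberg over all genes kept, threshold 0.05). The test was also run on simulated data with independent counts, which do not hold the excess of even values and so do not cover it. Comparisons with input used all 9 libraries and the mean of the 3 guides, and those between guides used the 6 FHY1-M3 libraries. Each SE is the log2 fold change over the root of F. CPM values of genes are from the fit of all 9 libraries and those of summed markers are scaled by library totals. Gene values are given as the lowest, median and highest of 6 or for each library. Coordinates are 1-based. Alternatives were DESeq2 1.42.0, other scalings and filters, halved counts, thinning, leaving out each library, and a replicate block. The members and lists were chosen with earlier results of these data known. Values per library were given for up to 4 passing genes per role with the largest fold and at least 5 CPM, for the gene with the most counts per role, for the 3 with the smallest p between guides and for the 3 with the lowest fold. The other ring genes, POLA2 and RRM2 were added after their values were seen. Up to 4 passing genes were named per further list. The result of 1 further list is not reported here.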

Additional observations from a re-analysis of the deposited data

Results flagged for a closer look

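Each of the 51 genes, their summed share and the share of each role were checked for a library standing apart among the 6 FHY1-M3 libraries (58 checks, of which chance flags about 1 in 20), and 6 did. MCM6 was lowest in ACTB sgRNA replicate 2, at 257 CPM against 295 to 305 CPM in the other 5, all of which lie above the inputs. POLA1 was lowest in that library too, at 145 CPM against 174 to 185 CPM. GINS2 was highest in ACTB sgRNA replicate 1, at 105 CPM against 72.9 to 83.7 CPM. POLD3 was highest in non-target replicate 1, at 164 CPM against 106 to 121 CPM, and passed against input without non-target replicate 2. TYMS was highest in non-target replicate 2, at 86.8 CPM against 50.9 to 59.0 CPM, and with it the share of nucleotide supply genes, at 0.0673% against 0.0586% to 0.0617%.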

How the results depend on the processing

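Under 18 alternatives for the comparison with input, 13 of the 17 higher calls were kept throughout and 0 changed sign. The number of replication genes called higher ran from 13 after thinning to 21 with library totals or with a replicate block. Library totals also moved all genes, with 1745 higher, 1054 lower and a median of 0.090, against 1524, 1153 and 0.037 as reported. The split over all genes is not given here for thinning or the block. Lower calls among the replication genes, 0 as reported, came to 1 with median-ratio factors, with a 10 CPM minimum, with halved counts and after thinning. They came to 2 in DESeq2 and ran from 0 to 1 without a library. Their median log2 fold change of 0.43 was 0.35 with median-ratio factors, in DESeq2 and after thinning and 0.36 with a 10 CPM minimum, and ran from 0.35 to 0.47 without a library. Of the 34 genes that did not pass, 12 changed sign under at least 1 alternative, and the cause was not tested. ORC5 was at -0.089 after thinning and LIG1 at -0.041. MCM8 was at -0.069 with median-ratio factors, -0.072 with a 10 CPM minimum, -0.067 in DESeq2, -0.054 with halved counts, -0.00146 without mitochondrial and histone genes and -0.22 after thinning. With library totals POLA1 was at 0.014 and POLD2 at 0.054, and POLD2 was at 0.019 with no filter and 0.018 with a replicate block. Without a library the ranges were -0.35 to 0.093 for ORC2, -0.65 to 0.13 for ORC4, -0.33 to 0.46 for ORC5, -0.14 to 0.17 for MCM8, -0.14 to 0.75 for GINS2, -0.13 to 0.13 for POLA1, -0.17 to 0.87 for PRIM2, -0.17 to 0.20 for POLD2, -0.30 to 0.16 for POLE2, -0.029 to 0.44 for LIG1, -0.64 to 0.16 for RPA3 and -0.20 to 0.029 for TYMS. With the replicate block 21 replication genes were higher against input, with CDC6, POLD1, PCNA and RPA2 added. Only the inputs had a replicate 3, so the block fitted that library by itself and the comparison rested on the other inputs. It is thus close to leaving out input replicate 3 and is not a separate check. Differences between replicates 1 and 2 correlated between groups at -0.013 to 0.0086, so no pairing by number was seen. Counting noise lowers such correlations, so they cannot tell if libraries of the same number share a culture or day. Between guides 0 replication genes passed under every alternative. Over all genes the calls for ACTB against non-target guides (32) were 21 with a 10 CPM minimum, 74 in DESeq2 and 16 with all 9 libraries, and ran from 18 to 35 without a library. For ACTB against con guides (4) they were 7 with no filter, 2 without mitochondrial and histone genes and 0 with all 9 libraries, and ran from 0 to 3 without a library. For con against non-target guides (22) they were 12 with a 10 CPM minimum and 38 in DESeq2, and ran from 10 to 27 without a library. The median over replication genes ran from -0.11 to -0.0019 for ACTB against non-target guides without a library. For con against non-target guides it was -0.024 with library totals and ran from -0.032 to 0.014 without a library.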
